A study of Mus musculus with 51 samples.

Results

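The cells described here are the triple-negative cells of the mouse lung 14 days after bleomycin, that is, cells sorted for lacking the epithelial protein EpCAM, the leukocyte protein CD45 and the endothelial protein CD31. They were taken by their labels: 8 of the 51 libraries in the series are bleomycin triple-negative libraries, and they were set against the other 23 bleomycin libraries, 7 of CD31+ cells, 8 of CD45+ cells and 8 of EpCAM+ cells. All animals were male C57/B6 mice, whose age is not given in the sources used here; the bleomycin group and the saline group each received their agent into the trachea, and the design text names 8 bleomycin and 5 saline animals. Saline libraries, 5 of each fraction, entered where treatments were compared, in the scaling of the levels quoted, and in an alternative fit of all libraries. The question was which genes, ligands and receptors belong to the mesenchymal compartment of the fibrotic lung.

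Bleomycin injures the alveolar lining and is followed by a wave of collagen deposition. The cells that lay down this matrix are fibroblasts and their contractile descendants, the myofibroblasts, and a sort that removes epithelium, leukocytes and endothelium leaves them together with smooth muscle, pericytes, mesothelium and any nerve-associated cells. Mesenchymal cells also shape their neighbours by secreting growth factors and by holding others back with binding proteins, so ligands, inhibitors and receptors are described separately below. A triple-negative library is therefore a mixture defined by what it lacks, and in such bulk samples fewer cells of a type and less RNA per cell cannot be told apart.

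The label was checked against marker genes. Col1a1, the alpha-1 chain of type I collagen, had a lowest, median and highest level of 9445, 17026 and 22190 CPM (counts scaled to a common library size, with TMM factors) in the triple-negative libraries. The CD31+ libraries gave 44.2, 151 and 417 CPM, the CD45+ libraries 23.05, 113 and 2348 CPM, and the EpCAM+ libraries 19.8, 104 and 276 CPM. Every triple-negative library lay above every other library, and the difference from the mean of the other 3 fractions was 6.30 ± 0.57 on the log2 scale (SE, 8 against 23 libraries; edgeR quasi-likelihood test, adjusted p = 2.4e-11). All 12 mesenchymal markers were highest in the triple-negative fraction. None of the epithelial, leukocyte and endothelial markers was: 12 of 12 epithelial markers were highest in EpCAM+ cells, 12 of 12 endothelial markers in CD31+ cells and 11 of 12 leukocyte markers in CD45+ cells. The exception was Lyz2, lysozyme, which type II epithelial cells also make and whose CD45+ and EpCAM+ means were 17163 and 10508 CPM against 575 in triple-negative cells.

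The other fractions were not free of mesenchymal RNA, and 2 libraries stood apart. The median of the 12 mesenchymal markers was 0.87 to 2.12% of its triple-negative level in the CD31+ libraries, 0.224 to 7.33% in the CD45+ libraries and 0.198 to 1.06% in the EpCAM+ libraries. The highest of these, 7.33%, was library Bleomycin_CD45_613, whose Col1a1 level was 2348 CPM. Library Bleomycin_CD31_621 had the highest epithelial score of its group, 7.003 against a group median of 4.83 (mean log2(CPM + 0.5) over 12 markers). The part of this RNA in the fold changes was not tested beyond leaving libraries out. Without both libraries, 1714 genes met the definition of triple-negative-high given below, and 1674 of them were among the 1684 found with all libraries. Triple-negative libraries themselves held epithelial markers at summed levels of 539 to 1543 CPM, against 92622 to 124687 CPM in EpCAM+ libraries. Their summed leukocyte markers reached 218 to 1797 CPM, against 22536 to 30084 CPM in CD45+ libraries, and their summed endothelial markers 244 to 494 CPM, against 17187 to 21046 CPM in CD31+ libraries. None of these markers was at 0 in a triple-negative library.

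**Figure D1:**
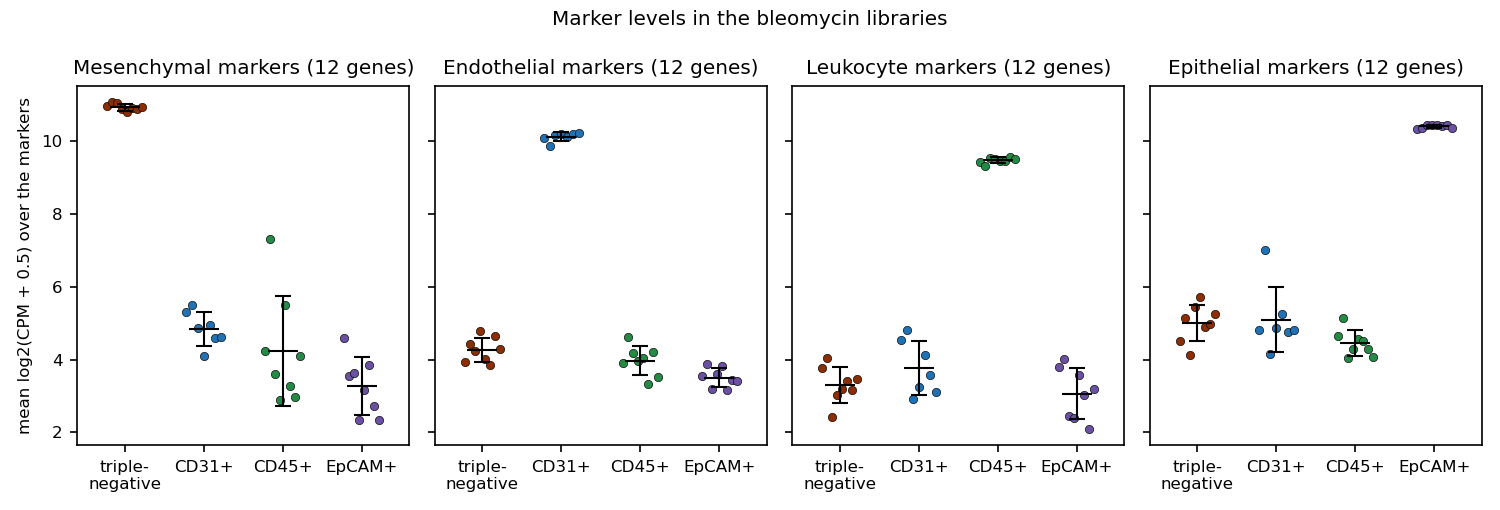
Mean log2(CPM + 0.5) over 12 markers of each cell type, 1 point per bleomycin library, with the mean and SD of each fraction (8 triple-negative, 7 CD31+, 8 CD45+ and 8 EpCAM+ libraries). Each fraction stands highest for its own markers; library Bleomycin_CD45_613 is the point at 7.33 among the mesenchymal markers and library Bleomycin_CD31_621 the point at 7.003 among the epithelial markers.

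Of 18503 genes with enough counts to test, 6673 were higher in the triple-negative fraction than in the mean of the other fractions (36.1% of those tested) and 7618 were lower (41.2%), at an adjusted p under 0.05, so that 77.2% differed in 1 direction or the other. A gene was called triple-negative-high where it was at least 2-fold higher than in each of the 3 other fractions, each with an adjusted p under 0.05, and 1684 genes were (9.10%). In 1506 of these, every triple-negative library also lay above all 23 others, an order that 10.7% of all genes tested had. The class was defined from these same libraries, so this order largely follows from the definition and carries no test. The opposite class, triple-negative-low, held 359 genes (1.94%). By the same rule 1078 genes were highest in CD31+ cells (5.83%), 1993 in CD45+ cells (10.8%) and 2273 in EpCAM+ cells (12.3%). Total counts ran from 15692665 to 35316904 per bleomycin library. Mitochondrial genes took 0.512 to 1.23% of the counts in triple-negative libraries, 0.486 to 0.689% in CD31+, 0.487 to 0.615% in CD45+ and 1.18 to 2.40% in EpCAM+ libraries, and the part of this in the differences was not tested.

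The genes that set the triple-negative fraction apart most sharply are ranked here by the smallest of their 3 log2 differences. Pappa2, a protease that frees insulin-like growth factors from their binding proteins, had 91.8, 181 and 243 CPM (lowest, median and highest) in triple-negative libraries and no more than 1.82 CPM in any other library, with a smallest difference of 7.26. Aspn, asporin, a small leucine-rich proteoglycan that binds collagen and TGF-beta, had 76.7, 101 and 122 CPM against at most 1.72 CPM elsewhere, with a smallest difference of 6.88. Hhip, which binds and neutralises hedgehog ligands, had 163, 274 and 379 CPM against at most 6.07 CPM, with a smallest difference of 6.80. The ranking picks genes by such gaps, so the lack of overlap in these 3 genes follows from it and carries no test. Over all genes tested, 10.7% had every triple-negative library above every other.

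Further genes of that ranking had varied roles. Myocd, the coactivator that switches on smooth muscle genes, had a smallest log2 difference of 6.54, and Actc1, cardiac alpha-actin, one of 6.91, although the actin genes are so alike that reads could be split among them. Adra1a, an alpha-1 adrenergic receptor, was in the same set. Others were Unc5c, a netrin receptor (6.75), Ebf2, a transcription factor of fat and bone precursors (6.54), Aoc3, an amine oxidase of vascular smooth muscle (6.59), Cyp2e1, a cytochrome P450 (6.59), and C7, a complement component with 573, 881 and 1518 CPM in triple-negative libraries (6.44). Lsamp, Adamts19, Pi15, Phex and Abca8a, the long non-coding gene Gm28154 and the microRNA gene Mir7025 were also among them, with the sulfotransferase Sult1e1, which headed the ranking. Sult1e1, which inactivates oestrogen, had 1.04, 5.93 and 13.1 CPM in triple-negative libraries, and its median was 0 CPM in each of the other fractions, so its fitted difference rests on very few counts. Mir7025 lies inside the span of Pdgfra, so its reads and those of the Pdgfra transcript cannot be told apart.

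Extracellular matrix genes were mostly triple-negative-high. Of 88 matrix genes listed, all 88 were tested and 67 were triple-negative-high (76.1%, beside 9.10% of all genes tested), and their median log2 difference from the mean of the other fractions was 4.78 beside -0.0786 over all genes. A member expressed in 1 fraction alone passes the filter on low counts through that fraction, so these counts describe the lists and carry no test. Among fibrillar and associated collagens 19 of 22 were triple-negative-high. Col6a3, a chain of the beaded-filament collagen VI, led them, with 2481, 3093 and 3864 CPM in triple-negative libraries against at most 186 CPM in any other (smallest log2 difference 6.24). Col3a1, Col5a1, Col24a1, Col1a2 and Col5a3 followed, with smallest differences of 5.29 to 5.66. Col11a2 was instead highest in CD45+ cells, at a mean of 16.0 CPM against 5.65, and Col2a1, cartilage collagen, highest in EpCAM+ cells at 1.17 CPM against 0.506.

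Proteoglycans and matricellular proteins were likewise mostly triple-negative-high, in 27 of 30 cases (90.0%, beside 9.10% of all genes). Lum, Ogn and Dcn, leucine-rich proteoglycans that space collagen fibrils, had smallest log2 differences of 6.37, 6.23 and 5.91. Tnc, tenascin-C, a matricellular protein of wounds, had 1236, 2191 and 2781 CPM in triple-negative libraries and no more than 206 CPM in any other. The 3 that missed were Spp1, Thbs3 and Comp. Spp1, osteopontin, which macrophages also make, had 1774, 3100 and 5791 CPM in triple-negative libraries and 3446, 4564 and 7397 CPM in CD45+ libraries; these ranges overlapped and the difference between them was -0.55 on the log2 scale (adjusted p = 0.22). Thbs3 overlapped with EpCAM+ cells in the same way, at means of 197 ± 28.2 CPM (SD, n = 8) against 241 ± 75.3 CPM (SD, n = 8). Fn1, fibronectin, met the definition, yet CD45+ cells held much of it: 9777, 15799 and 22258 CPM in triple-negative libraries stood beside 3888, 5028 and 6020 CPM in CD45+ libraries, a difference of 1.57.

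Elastic fibre genes were triple-negative-high in 10 of 13 cases (76.9%, beside 9.10% of all genes). Eln, elastin, had 8551, 10164 and 14259 CPM in triple-negative libraries and 347, 458 and 645.3 CPM in CD31+ libraries, which came next (log2 difference 4.50). Fbln1 and Mfap4, proteins that bind elastic microfibrils, had smallest differences of 5.73 and 5.69. Emilin2 was highest in CD45+ cells, at a mean of 248 CPM against 57.1. Basement membrane was shared more evenly: 11 of 23 were triple-negative-high (47.8%), 5 were highest in EpCAM+ cells and 1 in CD31+ cells. Lama2, the laminin chain of muscle and stroma, had a mean of 555 CPM in triple-negative cells against 2.56 to 6.63 CPM in the others. Lama1 was the endothelial exception, with a mean of 338 CPM in CD31+ cells against 5.72 CPM, and the laminin chain Lama3 was highest in EpCAM+ cells, at 169 CPM against 18.7 CPM.

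Enzymes that process and crosslink collagen were triple-negative-high in 15 of 25 cases, beside 9.10% of all genes tested. Lox, lysyl oxidase, had 425, 641.1 and 857 CPM in triple-negative libraries against at most 52.5 CPM in any other library, a difference from the mean of the others of 5.98 ± 0.45 (adjusted p = 3.2e-13). Loxl1, its relative in elastic fibres, the prolyl hydroxylase subunit P4ha3 and the procollagen N-proteinases Adamts2 and Adamts3 followed, with smallest differences of 4.10 to 5.65. Serpinh1, the collagen chaperone Hsp47, met the definition with a smallest difference of 1.95, against CD31+ cells, but not within the first block of columns of the count table (adjusted p = 0.066). Bmp1, the procollagen C-proteinase, did not: its mean of 470 CPM in triple-negative cells stood 0.61 on the log2 scale above the 315 CPM of EpCAM+ cells. Tll1, its relative, was highest in CD31+ cells at 26.0 CPM against 6.19.

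**Figure D2:**
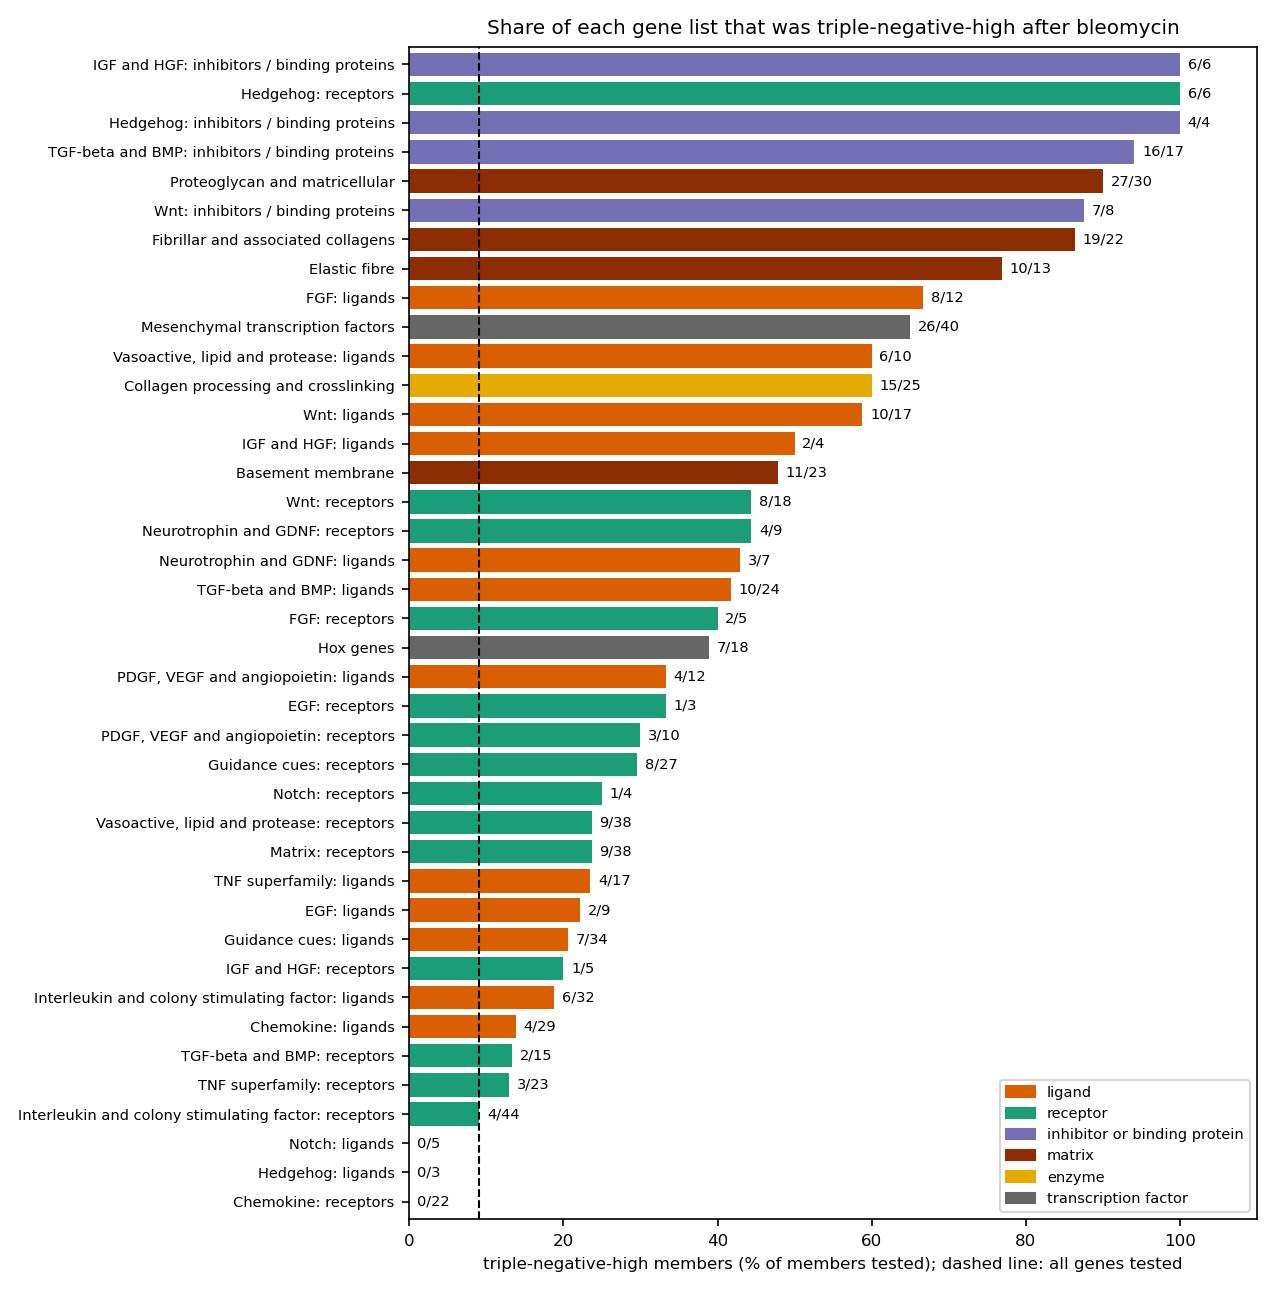
Share of each ligand, receptor, inhibitor, matrix, enzyme and transcription factor list that was triple-negative-high (x axis, % of members tested), with the counts at the bar ends; the dashed line is the 9.10% of all 18503 genes. The 8 lists at the top, from 6 of 6 to 10 of 13, are the 4 inhibitor lists, 3 of the 4 matrix lists and the hedgehog receptors, and chemokine receptors, hedgehog ligands and Notch ligands have no triple-negative-high member.

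Transcription factors were listed because they mark lung mesenchyme, so the count describes the list and carries no test. Of 40 tested (42 listed), 26 were triple-negative-high (65.0%, beside 9.10% of all genes). Among them were Prrx1, Gli2, Meox2 and Tcf21, with smallest log2 differences of 5.68 to 6.05. Tcf21, which marks lipid-bearing alveolar fibroblasts, had 84.9, 126 and 180 CPM against at most 7.50 CPM elsewhere. Tbx4 and Tbx5, T-box factors of the lung bud mesenchyme, had means of 284 and 109 CPM, against 7.86 and 3.77 CPM in CD31+ cells, the next highest. Their relative Tbx2 just missed, with a difference of 0.97 from CD31+ cells, and moved above the threshold when any of 6 single libraries was left out. Foxf1, required for lung vessels, was highest in CD31+ cells, with 705, 950 and 1194 CPM against 74.0, 88.3 and 108 CPM, and Pparg was highest in CD45+ cells, at 47.3 against 3.57 CPM. Of 18 Hox genes tested (26 listed), 7 were triple-negative-high (38.9%), led by Hoxb6 and Hoxb8, and 3 of the Hoxd cluster were highest in CD31+ cells.

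Ligands were divided among the fractions. Of 258 distinct ligand genes listed, 215 were tested and 66 were triple-negative-high (30.7%, beside 9.10% of all genes tested). Another 28 were highest in CD31+ cells, 40 in CD45+ cells and 26 in EpCAM+ cells. Over all genes tested these shares were 5.83%, 10.8% and 12.3%, and the EpCAM+ ligand count was near its share. Inhibitors and binding proteins were not divided: of 40 listed, 35 were tested, 33 were triple-negative-high (94.3%) and none was highest in another fraction. Of 281 distinct receptors listed, 267 were tested and 61 were triple-negative-high (22.8%), beside 36 highest in CD31+, 61 in CD45+ and 21 in EpCAM+ cells. The EpCAM+ receptor count was below the 12.3% of all genes. The remaining members of each group, 55 ligands, 2 inhibitors and 88 receptors, did not differ by the rule between 1 fraction and all others. Each count of triple-negative-high members in the families below stands beside the 9.10% of all genes tested.

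TGF-beta and BMP proteins bind paired serine/threonine kinase receptors, and secreted antagonists hold many of them away from those receptors. Of the ligands, 10 of 24 tested were triple-negative-high. Inhba, the subunit of activin A, had 32.9, 70.3 and 104 CPM in triple-negative libraries and at most 3.15 CPM in any other, 5.93 ± 0.26 above the mean of the others (adjusted p = 6.4e-19). Gdf10 and Gdf6 had smallest differences of 5.54 and 5.35, and Tgfb3 one of 2.39. Tgfb2 had 75.0, 94.9 and 114 CPM, against 15.8, 22.5 and 36.7 CPM in EpCAM+ libraries, the nearest.

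Tgfb1, the isoform most often named in fibrosis, was not a mesenchymal gene by this measure. Its triple-negative libraries had 80.4, 96.6 and 138 CPM, its CD45+ libraries 228, 291 and 338 CPM and its CD31+ libraries 131, 155 and 177 CPM, so the triple-negative libraries lay below every CD45+ library and overlapped the CD31+ range. EpCAM+ libraries were lowest, at 23.4, 27.1 and 30.3 CPM. The difference from the mean of the others was -0.09 ± 0.08 (adjusted p = 0.29). Bmp6 was highest in CD31+ cells, at a mean of 368 CPM against 8.87, and Bmp4 had similar means in triple-negative and EpCAM+ cells, at 89.7 ± 18.7 and 114 ± 24.8 CPM (SD, n = 8 each).

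The inhibitors and binding proteins of this family were triple-negative-high in 16 of 17 cases (94.1%). Grem1, gremlin-1, which binds BMPs, had 30.9, 63.9 and 92.5 CPM in triple-negative libraries and no more than 4.73 CPM in any other, 6.72 ± 0.41 above the mean of the others (adjusted p = 3.0e-15). Sost, Bmper, Ltbp2, a latent TGF-beta binding protein family member, and Fst, follistatin, which binds activin, had smallest differences of 5.38 to 6.10. Ltbp3 missed, at 0.64 above EpCAM+ cells. Of 15 receptors 2 were triple-negative-high (13.3%, beside 9.10% of all genes). Tgfbr2, the type II receptor for TGF-beta, had 1104, 1244 and 1537 CPM, above the 402, 515 and 651.1 CPM of CD31+ libraries by 1.35, and Bmpr1a was 1.18 above EpCAM+ cells. Acvrl1, Eng and Bmpr2, which carry BMP signals in vessels, were highest in CD31+ cells, at means of 2606, 2142 and 1144 CPM against 179, 187 and 177 CPM.

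Wnt proteins act through Frizzled receptors and co-receptors such as Ror2, and R-spondins raise the response through Lgr receptors. Wnt ligands were triple-negative-high in 10 of 17 tested (23 listed). Wnt5a, which signals without beta-catenin in many settings, had 93.9, 131 and 177 CPM against 7.18, 9.78 and 15.6 CPM in EpCAM+ libraries, the next highest (difference 3.68). Wnt2, a ligand of the lung bud, had 22.3, 29.8 and 51.3 CPM against at most 2.86 CPM. Wnt7b and Wnt7a were highest in EpCAM+ cells, with means of 47.6 and 11.9 CPM there against 4.54 and 1.81 CPM in triple-negative cells. Wnt4 stood 0.15 above EpCAM+ cells (adjusted p = 0.57), and Wnt11 lay at the threshold, with a smallest difference of 0.99.

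Of the secreted Wnt inhibitors 7 of 8 tested were triple-negative-high. Sfrp1, which binds Wnts, had 497, 900 and 1111 CPM against at most 62.2 CPM in any other library, and Frzb, Dkk3 and Sfrp2 had smallest differences of 5.42, 4.79 and 3.77. Wif1 missed, at means of 15.8 against 11.02 CPM in EpCAM+ cells. Of 18 receptors 8 were triple-negative-high: Ror2, with 36.3, 49.0 and 66.4 CPM against at most 4.87 CPM, and Lgr5, Fzd1, Lgr6, Fzd2 and Ptk7 led them. Fzd4 and Fzd6 were highest in CD31+ cells, at 550 and 118 CPM against 78.6 and 9.18, and Fzd5 in EpCAM+ cells.

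In hedgehog signalling, ligands and receptors fell to different fractions. None of the 3 ligands was triple-negative-high, all 6 receptors and co-receptors were, and so were all 4 inhibitors and binding proteins. Shh, which airway and alveolar epithelium secretes, had 30.8, 36.2 and 41.5 CPM in EpCAM+ libraries and 0.594, 0.973 and 1.66 CPM in triple-negative libraries. Ptch1, its receptor, had 135, 199 and 284 CPM in triple-negative libraries, 1.27 above the 68.0, 89.5 and 103 CPM of CD31+ libraries. Gas1 and Boc, co-receptors, had smallest differences of 5.31 and 3.52. Gli1, a target of the pathway, had 71.7, 99.7 and 141 CPM against at most 11.4 CPM elsewhere, in CD45+ cells. Dhh was the ligand of CD31+ cells, at 25.9 against 0.746 CPM.

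FGF ligands were triple-negative-high in 8 of 12 tested (22 listed). Fgf7 and Fgf10, which act on epithelial cells through Fgfr2, had 40.2, 50.2 and 60.7 CPM and 44.7, 63.2 and 78.4 CPM, against at most 4.01 and 2.48 CPM in any other library. Fgf2 ranged from 20.5 to 24.1 CPM among the 8 libraries, and Fgf18 had 24.6, 33.1 and 42.5 CPM. Fgfr1 and Fgfr4 were triple-negative-high, with smallest differences of 2.66 and 5.97, and Fgfr2 was highest in EpCAM+ cells, with 234, 406 and 502 CPM against 58.1, 66.4 and 74.4 CPM.

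All 6 IGF binding proteins tested were triple-negative-high, and of 4 IGF and HGF ligands 2 were, Igf1 and Hgf. The binding proteins, which hold IGFs away from their receptor or carry them, ranged from Igfbp4, 1.79 above CD31+ cells, to Igfbp3, 4.22 above them. Igf1 had 217, 360 and 475 CPM, against 54.2, 74.1 and 92.9 CPM in CD45+ libraries. Hgf, hepatocyte growth factor, stood at the threshold, with 57.3, 74.8 and 101 CPM against 28.5, 37.7 and 54.9 CPM in CD31+ libraries, a difference of 1.01 that fell to between 0.687 and 0.9997 in 10 alternative fits. Met, its receptor, was highest in EpCAM+ cells, with 116, 183 and 217 CPM against 11.7, 21.4 and 28.6 CPM. Mst1r, the related receptor for macrophage stimulating protein, was triple-negative-high, at a mean of 56.5 CPM against means of 1.47 to 2.75 CPM.

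Both PDGF receptors were triple-negative-high and none of their 4 ligands was. Pdgfra had 822, 943 and 1210 CPM in triple-negative libraries and at most 60.4 CPM in any other (difference from the mean 6.87 ± 0.36, adjusted p = 4.9e-17), and Pdgfrb 388, 606 and 827 CPM against at most 41.5 CPM. Pdgfb was triple-negative-low: its 16.7, 20.9 and 29.1 CPM lay below every other library, and CD31+ libraries held 514, 695 and 818 CPM. Pdgfd was also highest in CD31+ cells, Pdgfa stood 0.08 above EpCAM+ cells (adjusted p = 0.54) and Pdgfc 0.17 above CD45+ cells (adjusted p = 0.53). Of the vascular ligands, Angpt1, which steadies vessels through the receptor Tek, had 61.3, 86.9 and 138 CPM against at most 3.79 CPM, and Vegfd 151, 162 and 212 CPM against at most 19.6 CPM. Pgf, at 22.2, 29.8 and 38.2 CPM, was 1.04 above CD31+ cells and overlapped their highest library of 23.4 CPM. Vegfa and Vegfc were highest in CD31+ cells, as were 6 of the 10 receptors of this group.

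Of 9 EGF ligands 2 were triple-negative-high (22.2%, beside 9.10% of all genes), and of 5 Notch ligands none was. Egfr had 86.3, 91.5 and 115 CPM in triple-negative libraries against 16.6, 18.1 and 21.5 CPM in EpCAM+ libraries, a difference of 2.40. Areg, amphiregulin, was highest in EpCAM+ cells, at 79.3, 96.6 and 179 CPM against 1.91, 3.45 and 4.64 CPM, while the ligands Nrg2 and Ereg were triple-negative-high. Of the 5 Notch ligands tested, 3 were highest in CD31+ cells. Notch3, the Notch receptor of mural cells, was triple-negative-high, at a mean of 191 against 27.1 CPM in EpCAM+ cells.

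Of 29 chemokine ligands tested, 4 were triple-negative-high (13.8%, beside 9.10% of all genes) and 14 were highest in CD45+ cells. Of 22 chemokine receptors none was triple-negative-high and 17 were highest in CD45+ cells. Ccl11, eotaxin, had 47.7, 58.9 and 88.3 CPM against at most 12.4 CPM, and Cxcl14 had 533, 635.5 and 799 CPM against 22.4, 40.3 and 114 CPM in CD45+ libraries. Cxcl13, which draws B cells, ranged more widely, with 16.0, 33.1 and 68.7 CPM, and overlapped the 10.6, 16.0 and 19.0 CPM of CD45+ libraries. Cxcl10 was 1.08 above CD45+ cells and fell below the threshold in 3 alternative fits, among them those without Bleomycin_CD45_615 or without Bleomycin_Negative_638. Cxcl12, often taken as a stromal chemokine, was highest in CD31+ cells, at 1112, 1203 and 1439 CPM against 331, 503 and 597 CPM.

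Of 32 interleukin and colony stimulating factor ligands tested, 6 were triple-negative-high (18.8%) and 13 were highest in CD45+ cells. Csf1, the macrophage growth factor, had 270, 341 and 393 CPM against 64.9, 83.4 and 103 CPM in CD31+ libraries. Il11 had 8.34, 11.3 and 12.1 CPM against at most 2.005 CPM. Lif and Il6, relatives of Il11 that share the receptor subunit gp130, had 77.0, 142 and 412 CPM and 7.04, 9.03 and 39.0 CPM, and library Bleomycin_Negative_638 was the highest in both. Il33 was highest in EpCAM+ cells, at 511 against 129 CPM. Of 44 receptors 4 were triple-negative-high (9.09%, near the 9.10% of all genes), including Il1r1, the interleukin-1 receptor, with 207, 246 and 295 CPM against 89.5, 111 and 125 CPM in CD31+ libraries. In the TNF superfamily 4 of 17 ligands (23.5%) and 3 of 23 receptors (13.0%) were triple-negative-high, beside 9.10% of all genes. Of these receptors 9 were highest in CD45+ cells. Tnfsf13b, the B cell survival factor BAFF, had 89.7, 105 and 115 CPM against 13.9, 15.8 and 25.3 CPM in CD45+ libraries, and Tnfrsf19 had a mean of 142 CPM against means of 1.38 to 2.40 CPM.

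Guidance cues included some of the most restricted receptors. Slit2 and Slit3, repellents that act through Robo receptors, had 366, 390 and 508 CPM and 368, 503 and 564 CPM, with smallest differences of 5.59 and 3.54. Robo1 and Robo2, Epha3 and Unc5c were triple-negative-high, with smallest differences of 2.88, 5.25, 6.33 and 6.75. In all, 7 of 34 ligands (20.6%) and 8 of 27 receptors (29.6%) were, beside 9.10% of all genes, while 11 ligands were highest in CD31+ cells. Neurotrophin and GDNF genes had 3 of 7 ligands (42.9%) and 4 of 9 receptors (44.4%) triple-negative-high. Bdnf, at a mean of 14.1 CPM against means of 0.309 to 1.57 CPM, and the receptor Ntrk3 were among them, whereas Ntrk2 was highest in CD31+ cells, at 326 against 36.8 CPM.

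Receptors for vasoactive peptides, lipids and proteases were triple-negative-high in 9 of 38 cases (23.7%, beside 9.10% of all genes). Ednra, the endothelin A receptor that contracts vessels, had 197, 237 and 300 CPM against at most 9.46 CPM. Ptgfr, the receptor for prostaglandin F, S1pr3, for sphingosine-1-phosphate, and Lpar1, for lysophosphatidic acid, had smallest differences of 5.63, 5.26 and 4.84, whereas S1pr1 was highest in CD31+ cells. Edn1, the endothelin ligand, was highest in CD31+ cells, at 127, 165 and 230 CPM against 3.20, 6.01 and 7.10 CPM. Of ligands in this group, Rarres2, chemerin, and Adm, adrenomedullin, had 310, 393 and 658.5 CPM and 38.1, 49.4 and 60.9 CPM in triple-negative libraries. Gas6 met the definition with a smallest difference of 1.03 and missed it in 3 alternative fits. Matrix receptors were also triple-negative-high in 9 of 38 cases (23.7%). Itga8, an integrin of contractile interstitial cells, had 262, 424 and 736 CPM against at most 12.1 CPM. Ddr2, a receptor tyrosine kinase for collagen, had 467, 574 and 703 CPM against at most 29.5 CPM. Itgb1, the partner of many integrins, had means of 1354 and 1281 CPM in triple-negative and CD31+ cells (difference 0.10, adjusted p = 0.29).

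**Figure D3:**
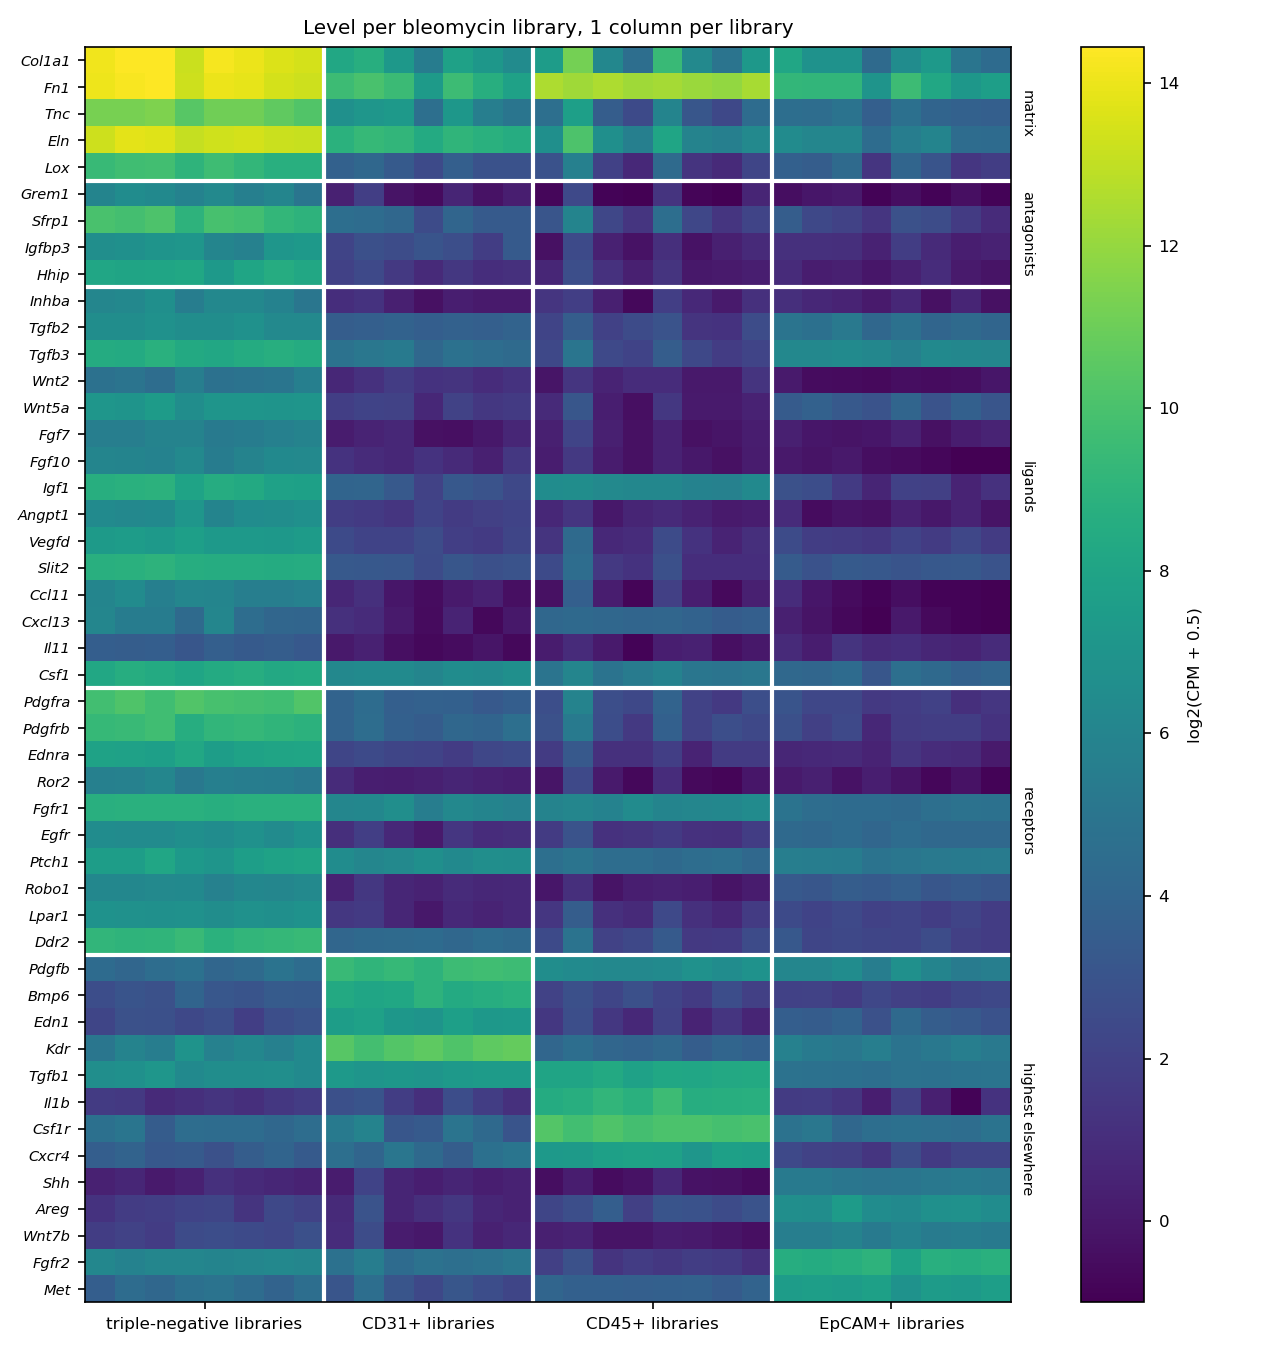
Level of 47 genes (rows) in each of the 31 bleomycin libraries (columns), as log2(CPM + 0.5). Rows from Col1a1 to Ddr2 are brightest in the 8 triple-negative libraries, the last rows are brightest in CD31+, CD45+ or EpCAM+ libraries, and the second CD45+ column, library Bleomycin_CD45_613, is brighter than its neighbours in many mesenchymal rows.

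Ligands and receptors were then read as pairs. Of 121 listed pairs, 112 had both genes at a mean of 1 CPM or more in at least 1 bleomycin fraction. The ligand had its highest mean in triple-negative cells in 53 of them, with the receptor highest in triple-negative cells in 22, in CD31+ in 14, in CD45+ in 12 and in EpCAM+ cells in 5. In 41 pairs the ligand was triple-negative-high, and the receptor passed the same rule in triple-negative cells in 13 of these, in CD31+ cells in 8, in CD45+ cells in 6 and in EpCAM+ cells in 3. Of all ligands and receptors tested, 30.7% and 22.8% were triple-negative-high, beside 9.10% of all genes. By the same rule 5.83%, 10.8% and 12.3% of all genes were highest in CD31+, CD45+ and EpCAM+ cells. Some genes recur in several pairs, so the pair counts, here and below, describe the list and carry no test. RNA levels do not show that the proteins met. Of pairs with a triple-negative-high ligand, Fgf7 and Fgf10 with Fgfr2 and Hgf with Met had their receptor in EpCAM+ cells. Angpt1 with Tek, Vegfd with Flt4, Slit3 with Robo4 and Adm with Calcrl had it in CD31+ cells. For Tek these were 1108, 1211 and 1322 CPM in CD31+ libraries against 20.9, 31.01 and 52.1 CPM in triple-negative libraries. Csf1 with Csf1r, Cxcl13 with Cxcr5, Ccl11 with Ccr3 and Tnfsf13b with Tnfrsf13c had it in CD45+ cells, where Csf1r stood at 862, 1054 and 1256 CPM against 10.99, 21.9 and 31.6 CPM.

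In the opposite direction 30 pairs had a triple-negative-high receptor, with the ligand called in CD31+ cells in 3, in CD45+ cells in 2 and in EpCAM+ cells in 3. These were Pdgfb and Pdgfd with Pdgfrb and Edn1 with Ednra from CD31+ cells, Il1a and Il1b with Il1r1 from CD45+ cells, and Shh with Ptch1, Areg with Egfr and Wnt7b with Fzd1 from EpCAM+ cells. Il1b had 360, 418 and 767 CPM in CD45+ libraries against 1.29, 2.16 and 2.80 CPM in triple-negative libraries. The 13 pairs with both genes triple-negative-high included Wnt5a with Ror2, Npnt with its integrin Itga8, Slit2 with Robo1, Rarres2 with Cmklr1, Fgf2 with Fgfr1, Tgfb2 and Tgfb3 with Tgfbr2, and Col1a1 with Ddr2 and Itga11. Tgfb1 with Tgfbr2 was among the 9 pairs whose ligand was called in no fraction.

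**Figure D4:**
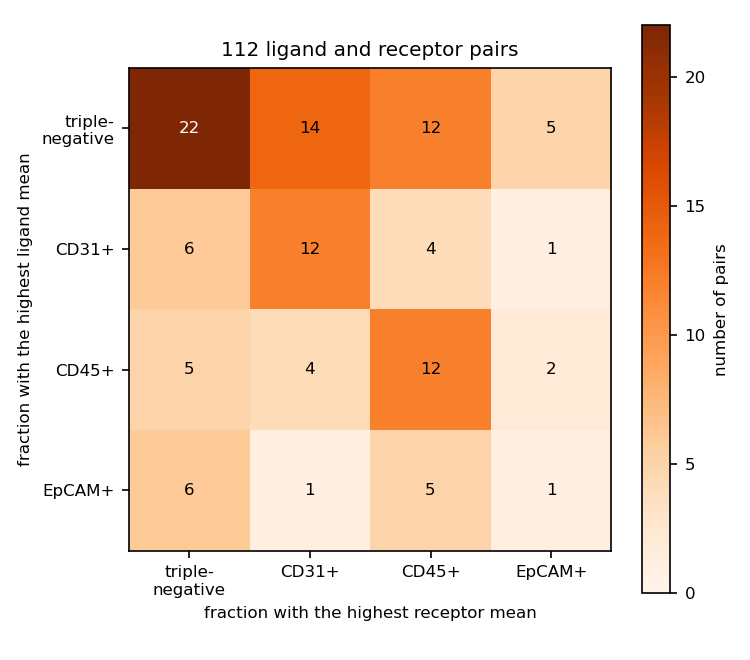
Number of ligand and receptor pairs by the bleomycin fraction with the highest mean ligand level (rows) and the highest mean receptor level (columns), for 112 pairs with both genes at 1 CPM or more. The triple-negative row holds 53 pairs, 22 of them with the receptor in the same fraction, and the triple-negative column holds 17 pairs whose ligand was highest elsewhere.

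Genes listed as markers of mesenchymal subtypes were triple-negative-high in 67 of 88 tested cases (92 listed), or 76.1% beside 9.10% of all genes. They were chosen as such markers, so the counts carry no test. The shares were 13 of 16 for alveolar fibroblasts, 11 of 16 for adventitial fibroblasts, 14 of 16 for fibrosis-associated fibroblasts, 11 of 12 for smooth muscle, 10 of 12 for pericytes and 9 of 11 for mesothelium. For Schwann and neural cells it was 1 of 7, S100b, at a mean of 12.6 CPM. Some markers drawn from single-cell atlases were present in triple-negative cells but higher in another fraction. Scn7a, Ly6a, Cd34 and Mcam were highest in CD31+ cells, at 1314, 2047, 1038 and 1761 CPM against 188, 174, 418 and 172 CPM in triple-negative cells. Plin2, a lipid droplet protein, was highest in CD45+ cells. Acta2, smooth muscle alpha-actin, had 780, 1799 and 2247 CPM in triple-negative libraries, and library Bleomycin_CD45_613 was the highest of the others at 194 CPM. Msln, mesothelin, had 147, 475 and 655.9 CPM against at most 79.1 CPM.

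Acta2 and Ccn1 are shown with their promoters because each was triple-negative-high and each carries 1 copy of the 6 letters CATTCC, or GGAATG on the other strand, which TEAD factors, the DNA partners of the mechanically responsive cofactors YAP and TAZ, are known to bind. Ccn1, a matricellular protein induced by stretch, had 723, 1025 and 2061 CPM in triple-negative libraries against 8.81 to 301 CPM in the others. The windows run from 250 bases before to 50 bases after the start that RefSeq gives (GRCm38.p6, 5′ to 3′ along the gene), with the match in capitals; it begins 146 bases before the start in Acta2 and 103 before it in Ccn1.
Acta2, chr19:34255324-34255623, minus strand: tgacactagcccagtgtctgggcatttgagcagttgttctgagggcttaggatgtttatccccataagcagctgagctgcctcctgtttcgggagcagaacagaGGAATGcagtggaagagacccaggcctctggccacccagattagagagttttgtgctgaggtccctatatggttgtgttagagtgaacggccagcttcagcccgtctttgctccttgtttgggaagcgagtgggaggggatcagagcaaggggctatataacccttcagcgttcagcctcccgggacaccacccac
Ccn1, chr3:145649936-145650235, minus strand: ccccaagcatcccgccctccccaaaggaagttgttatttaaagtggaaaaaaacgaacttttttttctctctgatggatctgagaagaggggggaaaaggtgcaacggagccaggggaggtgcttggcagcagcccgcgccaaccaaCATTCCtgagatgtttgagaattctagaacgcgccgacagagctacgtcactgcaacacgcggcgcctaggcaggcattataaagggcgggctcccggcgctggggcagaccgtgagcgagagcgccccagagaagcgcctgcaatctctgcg
The match occurs in 14.7% of the 32851 promoter windows of this length and, counted by gene, in 2007 of 13366 tested genes with a window and in 210 of 1143 triple-negative-high genes with one (18.4%). It is a match of letters and not evidence of binding.

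A locus for microRNAs was also triple-negative-high. Dnm3os, a long non-coding gene within Dnm3 that serves as the host transcript of miR-199a and miR-214, had 9.27, 14.0 and 18.9 CPM in triple-negative libraries against at most 1.24 CPM in any other, a smallest log2 difference of 5.69. Mir214 (chr1:162223368-162223477, GRCm38.p6, inside Dnm3os) had 0.364, 1.02 and 1.62 CPM against at most 0.239 CPM. The mature forms of the 2 hairpins of this locus are shown to identify it, with the seed, bases 2 to 8, in capitals (RefSeq, GRCm38.p6).
mmu-miR-214-3p: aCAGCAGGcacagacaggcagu
mmu-miR-214-5p: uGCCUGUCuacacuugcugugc
mmu-miR-199a-3p: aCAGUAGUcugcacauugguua
mmu-miR-199a-5p: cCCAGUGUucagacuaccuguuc
No 2 of these seeds are the same. Reads counted at Mir214 come from total RNA libraries and cannot be told apart from the host transcript, so they are no measure of the mature forms. Over all microRNA genes 12 of 123 tested were triple-negative-high (9.76%), near the 9.10% of all genes. Dnm3 itself was not, at a mean of 7.17 CPM against 12.6 CPM in CD31+ cells, and whether the counting used strand is not given in the sources used here.

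Triple-negative-low genes are, by the rule that defines them, higher in each of the other 3 fractions. Of 359 triple-negative-low genes, those with the most negative difference against all 3, among genes at 5 CPM or more in each of these, included regulators of immune signalling and antigen presentation. Sigirr, which restrains interleukin-1 and Toll-like receptor signalling, had 1.04, 2.28 and 3.27 CPM in triple-negative libraries and from 27.2 to 75.3 CPM in the other 23. Ciita, the master activator of MHC class II genes, had 1.93, 3.34 and 4.77 CPM, and lowest levels of 31.6, 91.9 and 32.8 CPM in CD31+, CD45+ and EpCAM+ libraries. H2-Ab1, an MHC class II chain, had 20.1, 37.1 and 53.1 CPM against 205 CPM in the lowest CD31+ library. Cd24a, Ptpn18, Zap70, Atp2a3, Abcc3, Rab27a and Kbtbd11 completed the 10, and in all of them every triple-negative library lay below every other. The ranking picks genes by such gaps, so this order follows from it and carries no test. Over all genes tested, 3.82% lay in that order. The mean log2(CPM + 0.5) of the 12 leukocyte markers was 2.93 to 4.83 in CD31+, 2.10 to 4.01 in EpCAM+ and 2.42 to 4.05 in triple-negative libraries, against 9.33 to 9.57 in CD45+ libraries. Their sum was 375 to 4002 CPM in CD31+ and 6568 to 13732 CPM in EpCAM+ libraries, where Lyz2, which type II cells also make, had a mean of 10508 CPM. The part of leukocyte RNA in these levels was not tested.

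Cell cycle genes were mostly lower in triple-negative cells than in the mean of the other fractions. Of 30, none was triple-negative-high and 27 were lower than the mean of the others (41.2% of all genes were), with a median log2 difference of -0.854. Mki67 had 33.2, 63.0 and 89.2 CPM in triple-negative libraries against 110, 168 and 303 CPM in CD31+, 109, 137 and 154 CPM in CD45+ and 71.7, 92.9 and 120 CPM in EpCAM+ libraries. Saline triple-negative libraries had 3.18 to 6.17 CPM.

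The dependence of the mesenchymal pattern on treatment was tested for each gene. Each gene's log2 difference between triple-negative cells and the mean of the other fractions was compared between bleomycin and saline in 1 fit of all 51 libraries. Of the 1684 triple-negative-high genes, 216 had a larger difference after bleomycin (12.8%, beside 13.8% of the 19841 genes tested) and 331 a smaller one (19.7%, beside 16.9%). These genes were chosen by their bleomycin values, which also enter this difference, so the shares describe the class and carry no test. Genes that met the rule only after saline are not among them. For Col1a1 the 5 saline triple-negative libraries had 5001, 8165, 5975, 7796 and 5840 CPM, all below the 8 bleomycin libraries, an order that 11.9% of the 19841 genes had, while 13.4% had the opposite one. Its level in the other fractions was higher too, with medians of 151, 113 and 104 CPM after bleomycin against 97.3, 40.0 and 22.4 CPM after saline in CD31+, CD45+ and EpCAM+ cells, and the difference between treatments was -1.003 (adjusted p = 0.35). A rise in triple-negative cells that is matched in the other fractions, from any source, cancels in this test.

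Among the triple-negative-high genes, those whose restriction to mesenchyme grew after bleomycin were led by Cthrc1. Cthrc1, a collagen triple helix protein that marks matrix-producing fibroblasts in fibrotic lung, had 33.6, 105 and 183 CPM in bleomycin triple-negative libraries. The 5 saline triple-negative libraries had 1.15, 2.63, 1.90, 2.81 and 2.06 CPM, below their CD31+ and EpCAM+ medians of 9.39 and 15.9 CPM. The difference between treatments was 5.06 (adjusted p = 3.4e-06). Megf11 went from 1.30 to 2.22 CPM in saline to 27.9 to 96.1 CPM after bleomycin (4.39, adjusted p = 6.7e-11), and Kif26b, a kinesin of Wnt5a and Ror2 signalling, from 2.77 to 5.01 CPM to 33.8 to 182 CPM (4.45, adjusted p = 2.1e-08). Tnfsf18, Ptprn, Tfap2a, the fetal fibrillin Fbn2, Scube1, Acsl6 and Plekhg4 completed the 10, with differences of 2.64 to 4.49. Grem1 and Tnc, which differed as widely between treatments within triple-negative cells, were not past the threshold here: Grem1 was 0.539 to 1.75 CPM in saline triple-negative libraries, but its CD31+ and EpCAM+ medians also went from 0.0342 and 0 CPM to 0.705 and 0.252 CPM, and the difference was 1.22 (adjusted p = 0.82).

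Triple-negative-high genes whose restriction shrank did so in more than 1 way. Has1, hyaluronan synthase 1, was lower in triple-negative cells after bleomycin: 239, 666, 276, 428 and 313 CPM in saline libraries stood above all of the 27.6 to 56.1 CPM after bleomycin, and the difference between treatments was -2.45 (adjusted p = 0.00020). Opcml went from 19.99 to 37.5 CPM to 5.18 to 13.0 CPM in the same way (-2.76). Sox9 and Cd109 changed mainly outside: Cd109 had 50.98 to 76.6 CPM in saline and 48.2 to 80.5 CPM in bleomycin triple-negative libraries, while its CD31+, CD45+ and EpCAM+ medians went from 1.08, 0.386 and 0.0950 CPM to 4.58, 2.32 and 2.82 CPM (-2.79, adjusted p = 8.5e-09). Hhip was lower in triple-negative cells too, at 887 to 2437 CPM in saline and 163 to 379 CPM in bleomycin libraries, and was still triple-negative-high by a difference of 6.80.

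The 8 bleomycin triple-negative libraries were not alike in how strongly they carried fibrosis genes. The mean of the 16 fibrosis-associated genes, as log2(CPM + 0.5), was 8.21, 8.35, 8.59, 7.36, 8.21, 7.99, 7.61 and 7.20 in libraries Bleomycin_Negative_636 to Bleomycin_Negative_643, and 5.27 to 5.91 in the 5 saline libraries. The alveolar fibroblast mean in the same bleomycin order was 7.95, 8.03, 7.71, 8.70, 7.66, 7.99, 8.31 and 8.65. Cthrc1, itself on the fibrosis list, had 126, 148, 183, 39.2, 134, 84.0, 45.9 and 33.6 CPM in that order, and the cell cycle mean was 4.11, 4.28, 4.51, 3.47, 4.51, 4.21, 3.83 and 3.503. The highest fibrosis and cell cycle means stood in Bleomycin_Negative_638, and the highest alveolar mean in Bleomycin_Negative_639. Adventitial, smooth muscle and pericyte means were 7.65 to 8.38, 7.34 to 8.27 and 5.72 to 6.19 after bleomycin, against 8.97 to 9.58, 8.55 to 9.34 and 6.18 to 7.18 in saline libraries. Mesothelial means overlapped, at 4.76 to 6.26 and 5.45 to 6.37.

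**Figure D5:**
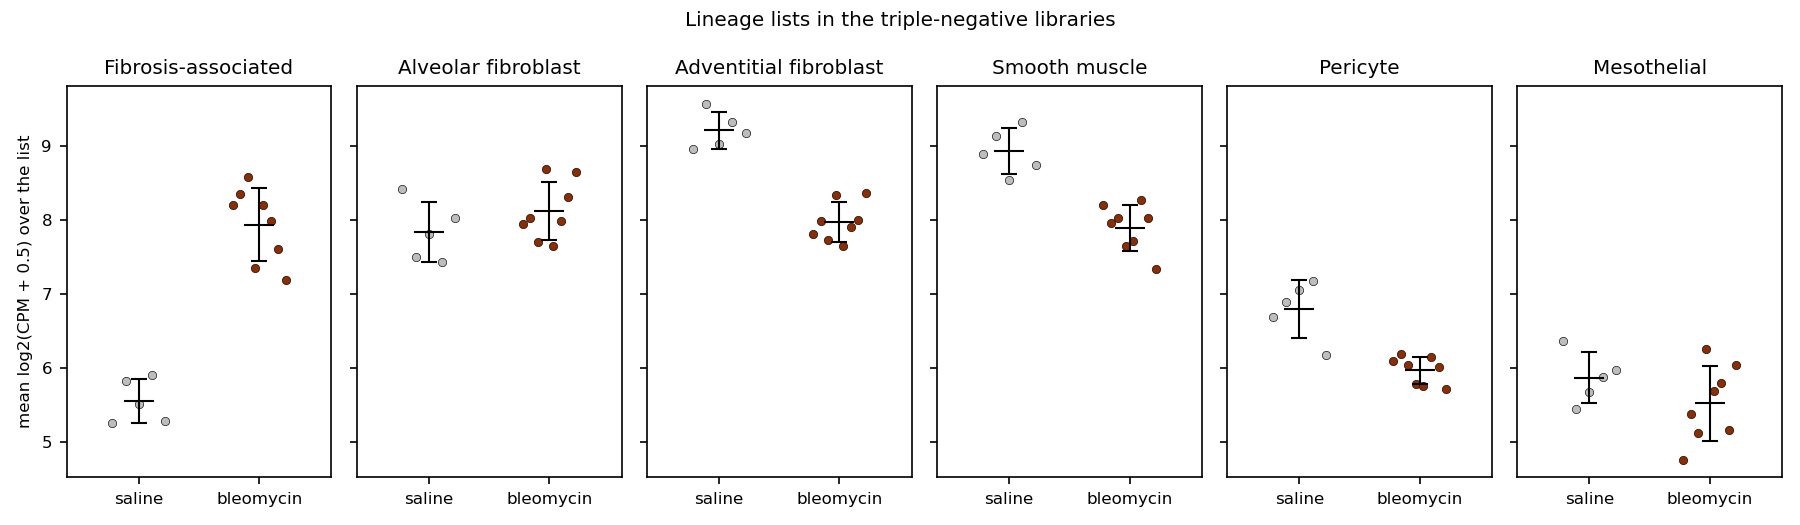
Mean log2(CPM + 0.5) over the genes of each mesenchymal subtype list, 1 point per triple-negative library, with the mean and SD of 5 saline and 8 bleomycin libraries. Fibrosis-associated means of 7.20 to 8.59 after bleomycin lie above all saline libraries, adventitial and smooth muscle means lie below them, and alveolar and mesothelial means overlap. Pericyte means overlap only at their edge, with a highest of 6.188 after bleomycin and a lowest of 6.176 in saline.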

How the data were processed

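RNA from sorted lung cells was extracted with an RNeasy kit and made into stranded total RNA libraries, per the labels' protocols. The authors deposited read counts per gene for 51 libraries; the build is GRCm38 per the submitters' processing notes, and the aligner, counter and strand setting are not given in the sources used here. Gene names were matched through RefSeq (31049 of 36528 identifiers; the unnamed held 1.63% of counts).

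Genes with low counts were removed (filterByExpr), TMM factors (0.864 to 1.19) computed, and edgeR 4.0.16 quasi-likelihood tests with Benjamini-Hochberg adjustment over all genes fitted in R 4.3.3 on 31 bleomycin libraries, with all 51 used for treatment dependence. CPM were scaled with the factors of all 51 libraries. The script was tested on simulated data. Alternatives were RLE factors, no filter and a 1 CPM filter, DESeq2 1.42.0, 1 fit of all libraries, the 2 column blocks of the table, other thresholds, and leaving out each library.

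Genes, lists and pairs were chosen with earlier results of these data known. Named were, per list and role, up to 6 triple-negative-high members with the largest smallest-of-3 difference, up to 3 highest elsewhere, and those near the threshold; the 20 sharpest triple-negative-high genes (5 CPM or more); the 10 lowest; and the 20 most treatment-dependent. Fn1, Tnc, Tgfb2, Ccn1, Tbx4, Tbx5, Gli1, Dnm3, Mir214 and Dnm3os were named outside this rule after their values were seen. Some genes that the rule selects are not reported here. Fractions of 1 animal share that animal, but the labels do not link them, so libraries were treated as independent; p-values measure the spread between libraries.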

Additional observations from a re-analysis of the deposited data

Results flagged for a closer look

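Among 52 mean marker levels (13 lists in 4 bleomycin fractions), 4 had 1 library far from the rest of its group, where chance gives about 1 in 20. Library Bleomycin_CD31_621 was high for epithelial markers (7.003) and for Schwann and neural markers (0.551) and low for endothelial markers (9.87). Library Bleomycin_CD45_613 was high for alveolar fibroblast markers (4.66). Of 297 named genes, 9 had such a triple-negative library, which is fewer than the 1 in 20 that chance gives. Library Bleomycin_Negative_638 was high for Lum (315 CPM), Lif (412 CPM), Il6 (39.0 CPM) and Scube1 (324 CPM), library Bleomycin_Negative_639 was high for Il1rl1 (28.9 CPM), and library Bleomycin_Negative_640 was low for Lamb1 (718 CPM) and Robo1 (54.2 CPM). Library Bleomycin_Negative_643 was low for Acsl6 (6.59 CPM) and library Bleomycin_Negative_636 for Has1 (27.6 CPM).

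The difference between triple-negative cells and the mean of the other fractions was larger after bleomycin than after saline, on the log2 scale, by 5.06 for Cthrc1, 4.49 for Tnfsf18, 4.45 for Kif26b, 4.39 for Megf11, 3.83 for Ptprn and 3.72 for Tfap2a. It was larger by 3.22 for Fbn2, 3.15 for Scube1, 2.76 for Acsl6, 2.64 for Plekhg4, 1.42 for Inmt and 1.01 for Tcf21. The treatment difference was negative for Sox9 (-2.96), Cd109 (-2.79), Opcml (-2.76), Efhd1 (-2.70), Enpp3 (-2.58), Flnc (-2.54), Ank2 (-2.52), Has1 (-2.45), Rbfox1 (-2.45) and Hhip (-1.48). Each was tested by the treatment term of the fit of all 51 libraries.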

How the results depend on the processing

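With another normalization, filter or tool, the counts of genes stayed within 1.5 times their values, but in short lists 1 to 3 members moved (IGF and HGF ligands 2 to 1 with the 1 CPM filter, Schwann and neural genes 1 to 4 without a filter); 1680 of the 1684 triple-negative-high genes were found again with RLE factors and 1677 with DESeq2. Without a fold threshold there were 2890 triple-negative-high genes and 1785 triple-negative-low genes; with a 4-fold threshold these were 1115 and 91. Where every library had to lie beyond every other, 707 genes were low. Leaving out 1 library at a time gave 1663 to 1748 triple-negative-high genes, 337 to 371 low genes, 6632 to 6993 genes higher and 7186 to 7655 lower than the mean of the others. It gave 64 to 67 ligands, 60 to 62 receptors, and, over the triple-negative and saline libraries, 2376 to 2757 genes with a larger and 3088 to 3427 with a smaller difference after bleomycin. Within the 2 blocks of columns 1734 and 1609 genes were triple-negative-high, of which 1613 and 1548 were among the 1684.

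Tgfb1 changed sign within the second block, to 0.00403. Bmpr2 ranged from -0.054 to 0.016 when 1 library was left out, with 0.016, 0.0064 and 0.012 without Bleomycin_CD31_623, Bleomycin_Negative_636 and Bleomycin_Negative_642. None of these was past the threshold. The treatment difference of Col1a1 was 0.31 against CD31+ cells alone. No paired analysis was possible because the replicate numbers of the labels are not shared between fractions. Members near the 2-fold threshold (Hgf, Gas6, Cxcl10, Wnt11, Tbx2) changed call when single libraries were left out, as did Lyz2. Serpinh1, Nid1 and Scube1 were not triple-negative-high within the first column block, nor Il1rl2 within the second. The larger difference after bleomycin lost its call for Tcf21 without a filter, against each fraction alone and without some single libraries, and for Tnfsf18 without a filter, against CD31+ cells alone and without Saline_CD31_651 or Saline_EpCAM_658. Depth limits genes of a few counts, such as Mir214 and Sult1e1.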

Other observations

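Il6 was triple-negative-high after bleomycin at 7.04 to 39.0 CPM, yet the 5 saline triple-negative libraries held 140, 156, 164, 168 and 152 CPM. Igfbp3 had 526.3 to 1647 CPM in saline and 54.9 to 162 CPM in bleomycin triple-negative libraries, and Lgr5 20.8 to 68.3 and 6.09 to 10.2 CPM. In the other direction Tgfb1 had 30.9 to 38.0 CPM in saline and 80.4 to 138 CPM in bleomycin triple-negative libraries, Slit2 76.6 to 179 and 366 to 508 CPM, and Spp1 13.7 to 157 and 1774 to 5791 CPM. These 6 genes were chosen after their values were seen; in none did the saline and bleomycin triple-negative libraries overlap, an order that 11.9% of 19841 genes had with bleomycin higher and 13.4% with bleomycin lower. Adventitial markers were past the treatment threshold in 12 of 16 cases and pericyte markers in 9 of 12, all smaller after bleomycin (beside 16.9% of all genes). Alveolar fibroblast markers were past it in 10 of 16, all larger (beside 13.8%), although the alveolar level in triple-negative cells overlapped between treatments.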
